A study of Rattus norvegicus with 6 samples.

Results

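Cystine import, glutathione synthesis, thiol oxidation and defence against lipid peroxides were followed through 10 genes (Slc7a11, Slc3a2, Gclc, Gclm, Ado, Gpx4, Aifm2, Nqo1, Acsl4 and Hmox1) in the lesion core of the contused rat spinal cord. The 10 genes were taken by gene name from the 33455 genes of a deposited count table, and all 10 were present once and passed the low-count filter. They were chosen from earlier results of the same contrast: by p, Ado ranked 11 and Slc7a11 ranked 12 of 17066 genes tested, and the list was drawn up with those results in view. The group differences of the 10 genes are therefore given as a description, without a test.

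Wild-type Norway rats (Rattus norvegicus) received a contusion at the T9 segment and then ultrasound. In 3 libraries (Gel+US) a gel accompanied it, and in the other 3 (Piezo Gel+US) the gel was a piezoelectric one, that is, one that generates charge when deformed. Injury and ultrasound (100 Hz, 1.0 W/cm2, 10 min a day for 4 weeks) were common to both groups, so the comparison is between the gels. No label used here gives the composition of either gel, and the 2 groups hold neither piezoelectric gel without ultrasound nor uninjured cord nor injured cord without ultrasound. Each library came from about 5 mm3 of lesion centre and the labels call the libraries of a group biological replicates, while strain, sex, age and the time of collection were not given in the sources used here. Total counts ran from 17212653 to 21436820 per library. Markers of neurons (10 of 10 listed), oligodendrocytes (8 of 8) and astrocytes (9 of 10, Gfap not being matched by name) were detected in the tissue labelled spinal cord. Libraries stood apart in several marker lists. Of 9 Schwann cell markers listed, genes of peripheral nerve myelin, 6 were matched by name. Their summed level was 70405 CPM (normalised read counts relative to library size) in Piezo Gel+US replicate 2 and 4359 to 12832 CPM in the other 5 libraries. The astrocyte markers of that replicate were the lowest of all libraries (1582 CPM in sum, against 3481 to 5669 CPM). Fibroblast and meninges markers summed to 6253 CPM in it and 8137 CPM in Gel+US replicate 2, against 898 to 1852 CPM elsewhere. Gel+US replicate 3 had the lowest neutrophil markers (8.67 CPM, against 94.6 to 279 CPM) and the highest neuron markers (14947 CPM, against 1860 to 7532 CPM), and Gel+US replicate 2 the highest T and NK cell markers (83.3 CPM, against 4.11 to 32.5 CPM). Between the groups, all 10 neuron markers had log2 fold changes below 0 (median -0.68), as had all 6 ependymal cell markers tested (-1.17), all 9 astrocyte (-0.29), all 6 microglia (-0.34) and all 6 T and NK cell markers tested (-0.85), while all 6 Schwann cell markers were above 0 (1.99). Their part in the results below was not tested.

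Cells take up cystine, the oxidised dimer of cysteine, through system xc-, a pair of proteins made of the transporting light chain Slc7a11 and the heavy chain Slc3a2, in exchange for glutamate. Cysteine limits the synthesis of glutathione, whose first step is run by glutamate-cysteine ligase, an enzyme of a catalytic (Gclc) and a modifier (Gclm) subunit. The selenoenzyme Gpx4 spends glutathione to reduce lipid hydroperoxides in membranes, and Aifm2 (ferroptosis suppressor protein) and Nqo1 reduce quinones, Aifm2 in a route that protects membranes beside Gpx4. Acsl4 loads polyunsaturated fatty acids into phospholipids, the substrate of peroxidation, and when defence fails the iron-dependent death called ferroptosis follows. Hmox1 breaks down heme and releases its iron. Ado is a thiol dioxygenase that oxidises cysteamine and the N-terminal cysteine of certain proteins, among them Rgs4 and Rgs5. Slc7a11, Gclc, Gclm, Nqo1 and Hmox1 are textbook targets of the transcription factor NRF2 (gene Nfe2l2), which binds antioxidant response elements, and Slc7a11 and Slc3a2 are also targets of ATF4 in the amino acid response.

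The promoter windows of the 3 genes whose groups did not overlap are shown first, since they are the sequences in front of the transcripts that differed most. Each is the 250 bases before the RefSeq start site in the GRCr8 assembly, 5′ to 3′ on the strand of the gene. Capitals mark a match to the antioxidant response element core.
Slc7a11 (chr2:136668265-136668514, minus strand): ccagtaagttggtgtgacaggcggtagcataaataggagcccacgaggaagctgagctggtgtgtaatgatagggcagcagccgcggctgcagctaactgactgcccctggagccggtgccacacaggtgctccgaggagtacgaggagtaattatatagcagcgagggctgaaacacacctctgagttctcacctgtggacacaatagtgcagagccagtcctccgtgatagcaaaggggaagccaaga
Gclm (chr2:213031885-213032134, plus strand): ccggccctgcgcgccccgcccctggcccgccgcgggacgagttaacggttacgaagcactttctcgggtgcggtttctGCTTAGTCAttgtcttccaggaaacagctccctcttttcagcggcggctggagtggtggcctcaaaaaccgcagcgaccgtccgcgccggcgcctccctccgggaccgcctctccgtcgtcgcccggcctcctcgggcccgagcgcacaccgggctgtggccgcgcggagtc
Ado (chr20:21043444-21043693, plus strand): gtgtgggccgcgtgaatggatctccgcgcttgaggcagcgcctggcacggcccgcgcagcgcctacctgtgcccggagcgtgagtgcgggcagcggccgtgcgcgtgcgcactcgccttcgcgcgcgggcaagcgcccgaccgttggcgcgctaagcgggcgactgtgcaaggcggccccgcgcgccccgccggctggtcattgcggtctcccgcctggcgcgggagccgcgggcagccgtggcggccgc
Windows of 300 bases (250 before to 50 after the start) were available for 9 of the 10 genes, all but Hmox1, with 12 windows in total because Slc3a2 and Gpx4 have several start sites. The core TGACNNNGC, searched on both strands, occurred in 2 of these 12 windows and in 12.1% of all 33465 windows of that length. One match was in Gclm, 172 to 164 bases before the start, as the reverse complement of the core. The other lay in a window of Slc3a2, 45 to 37 bases before the start, and is shown with 20 bases on either side because it is the only other match among the 10 genes.
Slc3a2 (chr1:215039687-215039735, minus strand): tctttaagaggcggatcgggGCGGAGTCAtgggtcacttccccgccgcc
The amino acid response element TGATGNAA, which shares no full match with the core, was in 0 of the 12 windows and in 3.98% of all windows. These matches are descriptions of letters and not binding sites, and no match says only that the letters are not in this window. The Ado window held 78.0% G and C with 44 CG pairs, the Gclm window 70.4% with 34 and the Slc7a11 window 55.6% with 9, against medians of 51.2% and 5 over the same 250 bases of all windows. The table of counts carries gene identifiers of which 0 occur in the Norway rat RefSeq table of that assembly, although all 10 symbols do, so the windows belong to the genes by symbol. Its positions put Slc7a11 on the plus strand and Gclm on the minus strand, opposite to the windows shown. The counts were therefore made on another annotation. Its sequence names look like those of an assembly of another rat species, and the species of that assembly was not checked here. Its effect on levels, gene lengths and unmatched names was not tested.

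Among the 10 genes, 2 transcripts of the import and synthesis arm were lower in every Piezo Gel+US library than in any Gel+US library, and 1 thiol dioxygenase was higher in every one. Slc7a11 and Gclm were the lower ones and Ado the higher one, while the other 7 genes overlapped between the groups. Over all genes tested, 2.73% lay lower without overlap and 4.08% higher, and since the same contrast chose the genes nothing is read from these shares. In the edgeR quasi-likelihood test with Benjamini-Hochberg adjustment, 0 of 17066 genes (0.0%) were called, the smallest adjusted p being 0.994, so none of the 10 genes was. The unadjusted p was below 0.05 for 359 genes. DESeq2, run on 23240 genes without that filter, also called 0, with 652 at that level. The limma-voom fit with quality weights for the libraries called 0 of 17066, with 2413 at that level. Of the 10 genes, 5 were higher and 5 lower in Piezo Gel+US (all genes: 47.1% higher). Their log2 fold changes had a median of 0.03, against -0.02 for all genes.

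**Figure D1:**
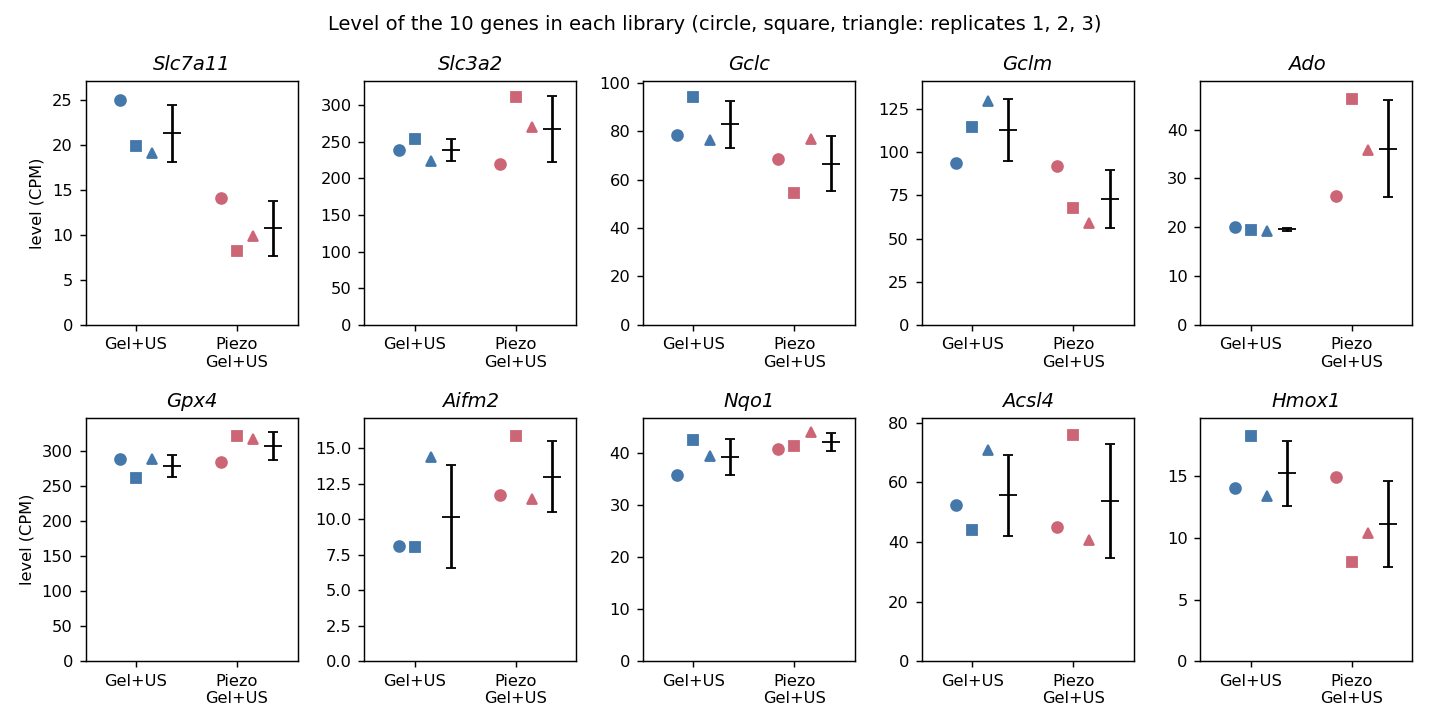
Level in CPM of each of the 10 genes (one panel each, axis from 0) in the 3 Gel+US and 3 Piezo Gel+US libraries, with circle, square and triangle for replicates 1, 2 and 3 and the mean ± SD in black. The groups are separate for Slc7a11, Gclm and Ado, with Ado between 26.4 and 46.2 CPM in Piezo Gel+US and near 19 to 20 CPM in Gel+US, and overlap for the others.

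Slc7a11, the cystine and glutamate antiporter, measured 25.0, 19.9 and 19.1 CPM in Gel+US replicates 1 to 3 and 14.1, 8.20 and 9.88 CPM in Piezo Gel+US replicates 1 to 3. The highest Piezo Gel+US library was thus below the lowest Gel+US library. The means were 21.3 ± 3.18 and 10.7 ± 3.06 CPM (SD, n = 3 each), and the log2 fold change from the fit was -0.99 (95% interval -1.61 to -0.36), a level 1.98-fold lower in Piezo Gel+US. These levels rest on 358 to 498 counts per library in Gel+US and 163 to 265 in Piezo Gel+US. In bulk tissue, fewer cells that express a gene and less RNA per cell cannot be told apart.

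Slc3a2, the heavy chain that carries Slc7a11 and several other light chains to the membrane, did not show the same pattern. Its levels were 238, 254 and 224 CPM in Gel+US and 220, 311 and 271 CPM in Piezo Gel+US, with the lowest and the highest library both in the Piezo Gel+US group. The log2 fold change was 0.16 (95% interval -0.30 to 0.63), and without Piezo Gel+US replicate 2 it was 0.03, without replicate 1 of that group 0.27. Scaled per kilobase of the deposited gene length, Slc3a2 stood 12.4, 16.6 and 15.2 times above Slc7a11 in the Gel+US libraries and 20.2, 49.2 and 35.6 times above it in the Piezo Gel+US libraries.

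The heavy chain serves 6 light chains on the list (Slc7a5, Slc7a6, Slc7a7, Slc7a8, Slc7a10 and Slc7a11), and Slc7a11 was a small part of their sum. On the per-kilobase scale it made up 7.78%, 8.20% and 7.15% of the light chain sum in Gel+US and 5.00%, 3.35% and 3.48% in Piezo Gel+US. Slc7a5, the large neutral amino acid transporter, led the family with 43.2 ± 4.55 CPM per kilobase in Gel+US, against 52.3 ± 11.2 under Piezo Gel+US. Next came the astrocytic Slc7a10 (35.2 ± 10.7 and 29.3 ± 17.4 CPM per kilobase) and Slc7a6 (10.5 ± 0.810 and 9.42 ± 1.65). Slc7a11 ranked above Slc7a8 in all 3 Gel+US libraries, where its lowest value was 7.35 CPM per kilobase and the highest of Slc7a8 was 7.20, and below it in all 3 Piezo Gel+US libraries. The other light chains had log2 fold changes between -0.26 (Slc7a10) and 0.28 (Slc7a5), and the ratio of Slc3a2 to the sum of light chains overlapped between the groups (from 0.964 to 1.36 in Gel+US and from 1.01 to 1.65 in Piezo Gel+US).

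**Figure D2:**
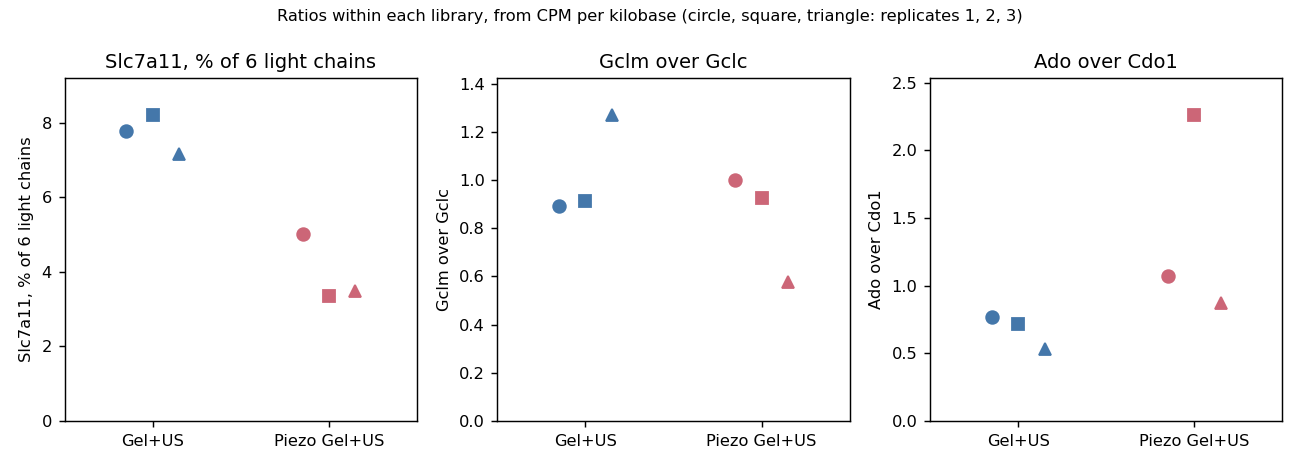
Ratios within each library, from CPM per kilobase, for 3 pairings: Slc7a11 as a percentage of 6 light chains of Slc3a2, Gclm over Gclc, and Ado over Cdo1, with circle, square and triangle for replicates 1, 2 and 3 and axes from 0. Slc7a11 took 7.15% to 8.20% of the light chains in Gel+US and 3.35% to 5.00% in Piezo Gel+US, the Gclm ratio overlapped, and the Ado ratio did not.

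Gclm, the modifier subunit of glutamate-cysteine ligase whose promoter window holds the antioxidant response element core, measured 93.7, 115 and 130 CPM in Gel+US and 91.8, 67.6 and 59.2 CPM in Piezo Gel+US. The groups did not overlap, but by a narrow margin: replicate 1 differed by only about 2 CPM between the groups. The log2 fold change was -0.63 (95% interval -1.17 to -0.09), with means of 113 ± 18.1 and 72.9 ± 16.9 CPM. Gclc, the catalytic subunit, measured 78.3, 93.9 and 76.1 CPM in Gel+US and 68.5, 54.4 and 76.7 CPM in Piezo Gel+US. Its groups overlapped because Piezo Gel+US replicate 3 matched the Gel+US libraries, and its log2 fold change was -0.31 (95% interval -0.76 to 0.13). Without Piezo Gel+US replicate 2 the Gclc value was -0.20. The subunits were close to balanced per kilobase: Gclm over Gclc was 0.894, 0.914 and 1.27 in Gel+US and 1.00, 0.927 and 0.576 in Piezo Gel+US.

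Ado measured 19.99, 19.3 and 19.3 CPM in Gel+US and 26.4, 46.2 and 35.7 CPM in Piezo Gel+US. Every Piezo Gel+US library was above every Gel+US library, and the Gel+US libraries lay close together (SD 0.393 CPM) while the Piezo Gel+US libraries were spread (SD 9.94 CPM). The log2 fold change was 0.89 (95% interval 0.33 to 1.44), a level 1.85-fold higher. Cdo1, the other thiol dioxygenase, which oxidises free cysteine, had a log2 fold change of -0.06 (95% interval -0.78 to 0.66), and Ado over Cdo1 per kilobase was 0.766, 0.716 and 0.531 in Gel+US and 1.07, 2.26 and 0.875 in Piezo Gel+US. The deposited Ado model is 1506 bases from first to last position, all of it counted, so that model has no intron.

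Gpx4, the enzyme that reduces lipid hydroperoxides in membranes, and Nqo1 overlapped between the groups. Gpx4 measured 288, 261 and 289 CPM in Gel+US and 285, 322 and 317 CPM in Piezo Gel+US, a log2 fold change of 0.14 (95% interval -0.26 to 0.54), or 0.08 without Gel+US replicate 2. Nqo1, the quinone reductase and an NRF2 target, measured 35.6, 42.4 and 39.4 CPM in Gel+US and 40.8, 41.3 and 44.0 CPM in Piezo Gel+US, a log2 fold change of 0.10 (95% interval -0.26 to 0.47), or 0.04 without Gel+US replicate 1 and 0.16 without its replicate 2. Both were among the steadiest genes of the table, with SDs of log2 CPM over the 6 libraries at the 3.79 percentile (Gpx4) and the 3.28 percentile (Nqo1) of all genes tested. The intervals do not exclude differences of 0.54 and 0.47.

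Aifm2, which regenerates the radical-trapping quinol in membranes, measured 8.12, 8.05 and 14.3 CPM in Gel+US and 11.7, 15.8 and 11.4 CPM in Piezo Gel+US. Gel+US replicate 3 lay among the Piezo Gel+US libraries, and the log2 fold change of 0.35 (95% interval -0.38 to 1.08) became 0.67 when that library was left out and 0.17 when Piezo Gel+US replicate 2 was. Acsl4, on the side that feeds peroxidation, measured 52.3, 44.0 and 70.7 CPM in Gel+US and 45.2, 75.8 and 40.6 CPM in Piezo Gel+US. Each group held 1 high library, the log2 fold change was -0.05 (95% interval -0.76 to 0.67), and its sign depended on the library left out, from -0.38 without Piezo Gel+US replicate 2 to 0.15 without Gel+US replicate 3.

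Hmox1, the inducible heme oxygenase, measured 14.0, 18.2 and 13.4 CPM in Gel+US and 14.9, 8.05 and 10.4 CPM in Piezo Gel+US. Piezo Gel+US replicate 1 lay within the Gel+US range and the other two below it, for a log2 fold change of -0.45 (95% interval -1.13 to 0.23), or -0.27 leaving out Piezo Gel+US replicate 2 and -0.74 leaving out replicate 1 of that group. The constitutive Hmox2 stood 4.34 to 9.35 times above Hmox1 per kilobase over the 6 libraries. The only matched red blood cell markers, Slc4a1 and Ahsp, summed to 199, 371 and 5.16 CPM in Gel+US and 109, 41.1 and 2.02 CPM in Piezo Gel+US. They were highest in Gel+US replicate 2, as was Hmox1. They were far apart in Gel+US replicates 1 and 3, where Hmox1 was 14.0 and 13.4 CPM. The 9 macrophage and phagocyte markers summed to 1083 CPM in Piezo Gel+US replicate 2, 1087 CPM in Gel+US replicate 1 and up to 1523 CPM elsewhere. The part of either in the Hmox1 levels was not tested.

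**Figure D3:**
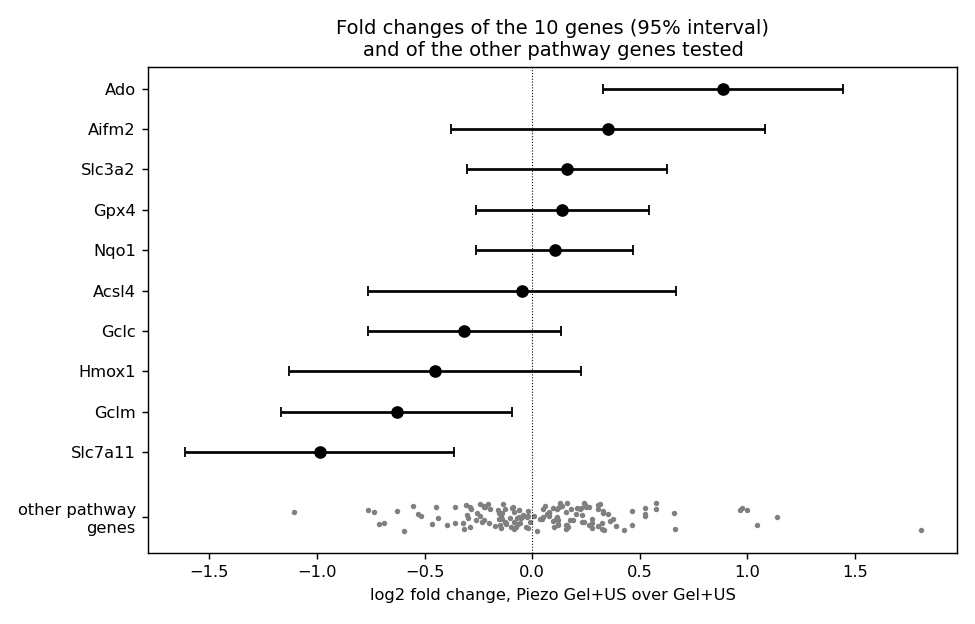
Log2 fold change of Piezo Gel+US over Gel+US for the 10 genes, as points with 95% intervals from the edgeR fit, and below them the 149 other pathway genes tested, as grey points spread vertically for visibility only. The intervals of Slc7a11, Gclm and Ado lie on one side of 0, and the other 7 cross it. The intervals are not adjusted for the number of genes, and the 10 genes were chosen from this contrast, so this is a description.

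Levels per kilobase placed the 10 genes in a steady order at the top and an unsettled one below. Gpx4 led in all 6 libraries (184.7 to 227.2 CPM per kilobase), followed in all 6 by Slc3a2 (110.1 to 155.4). Nqo1 (23.9 to 29.5) was above Gclc in all 6 libraries, but Gclm was above Nqo1 in Gel+US replicate 3 and Ado was above it in Piezo Gel+US replicate 2. Gclc (mean 22.0), Gclm (20.4) and Ado (18.5) exchanged places between libraries, Gclc being above Gclm in 4 of 6 and Gclm above Ado in 4 of 6. Acsl4 (mean 10.3) was above Slc7a11 (6.17) in all 6, whereas Slc7a11, Aifm2 (6.14) and Hmox1 (4.72) did not keep an order. Ado was below Gclm in all 3 Gel+US libraries and above it in 2 of the 3 Piezo Gel+US libraries.

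**Figure D4:**
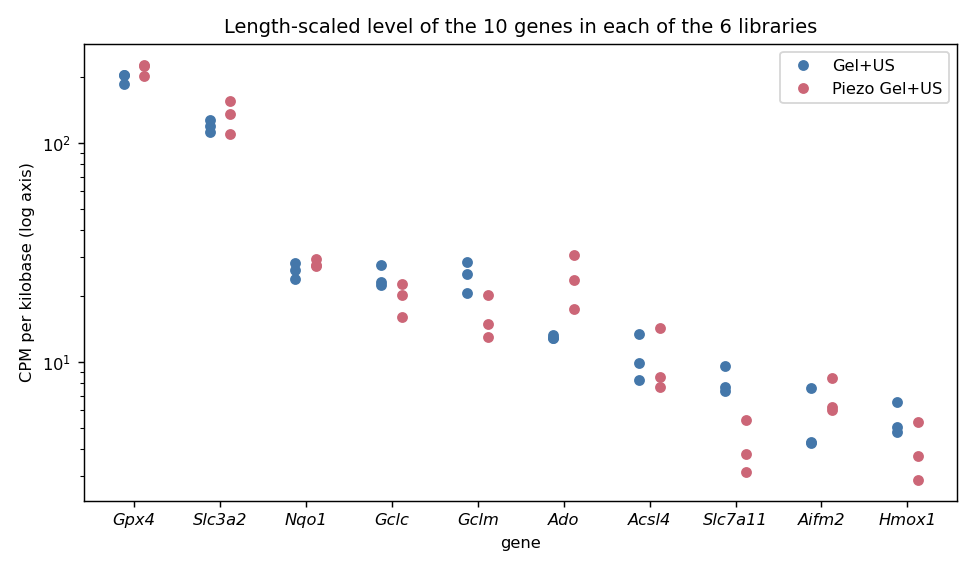
Level of the 10 genes in CPM per kilobase of deposited gene length (log axis) in the 3 Gel+US (blue) and 3 Piezo Gel+US (red) libraries, ordered by the mean of the 6 libraries. Gpx4 and Slc3a2 lie above 100 CPM per kilobase and the other genes below 31.

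Across libraries the 10 genes varied about as much as the rest of the table, with a median SD of log2 CPM of 0.39 against 0.38 for all genes tested. Piezo Gel+US replicate 2 was the extreme library most often: it held the highest level of 5 genes (Slc3a2, Ado, Gpx4, Aifm2 and Acsl4) and the lowest of 3 (Slc7a11, Gclc and Hmox1). It was also the library of high Schwann cell and low astrocyte markers. Without it the log2 fold change was -0.83 for Slc7a11 and 0.66 for Ado, and Gclm was -0.85 leaving out Piezo Gel+US replicate 1 and -0.50 leaving out its replicate 3. Within Piezo Gel+US the summed Schwann cell markers were 7077, 70405 and 12832 CPM in replicates 1 to 3, the order in which Ado was higher and Slc7a11 lower. At nearly equal Schwann cell sums, 7091 and 7074 CPM in Gel+US replicates 2 and 3 and 7077 CPM in Piezo Gel+US replicate 1, Ado was 19.3, 19.3 and 26.4 CPM and Slc7a11 was 19.9, 19.1 and 14.1 CPM. The part of the Schwann cell and astrocyte markers in the larger differences was not tested.

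**Figure D5:**
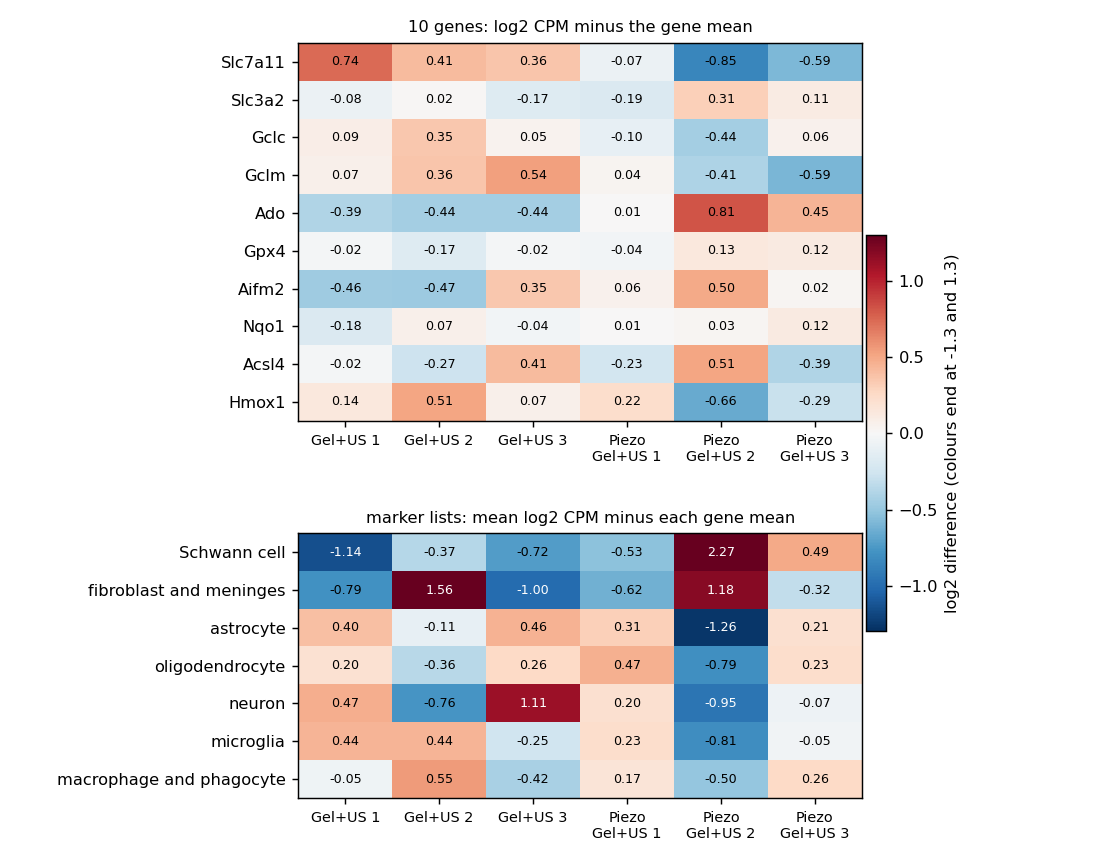
Heat maps over the 6 libraries of log2 CPM minus the mean of the gene for the 10 genes (top), with red above and blue below. The bottom map shows the same quantity averaged over the markers of Schwann cells, fibroblasts and meninges, astrocytes, oligodendrocytes, neurons, microglia, and macrophages and phagocytes. The other marker lists, among them neutrophil, T and NK cell and red blood cell markers, are not drawn. Colours end at -1.3 and 1.3, and the values are printed in the cells. Piezo Gel+US replicate 2 has the highest Ado (0.815), the lowest Slc7a11 (-0.85) and the highest Schwann cell markers (2.27).

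The transcripts with patterns most like Slc7a11 and Ado were found by the root mean square difference of centred log2 CPM over the 6 libraries. The search covered 12935 named genes above a low floor of level. For Slc7a11 these were Cdr2 (0.155), Phka2 (0.178), Nme5 (0.189), Rgs22 (0.19) and P4ha3 (0.197). For Ado they were Clcn2 (0.0694), Tspan15 (0.0744), Aatk (0.104), Ggt1 (0.116) and Eva1c (0.122). The Ado neighbours were closer, but the counts behind the neighbours differed. Nme5 had 11 to 42 counts per library and P4ha3 20 to 66, against 43 to 145 for Ggt1 and 12000 to 28750 for Aatk. The part of counting noise in the closeness was not tested. Clcn2, the nearest to Ado, measured 90.3, 91.6 and 81.8 CPM in Gel+US and 114, 190 and 150 CPM in Piezo Gel+US. Aatk, the third, measured 736, 689 and 601 CPM in Gel+US, and 857, 1446 and 1080 CPM in Piezo Gel+US. These genes were picked for their likeness to Ado, so a shared direction and highest library follow from the choice.

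The surrounding pathway was followed through 10 gene lists holding 180 distinct genes, of which 162 were matched by name and 159 tested. None of the 159 was called by the edgeR test. Of the 149 that are not among the 10 genes, 76 were higher and 73 lower in Piezo Gel+US, with a median log2 fold change of 0.02, and 19 did not overlap between the groups in either direction (6.81% of all genes tested did not).

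Amino acid transporters lay mostly lower. In the cystine and amino acid transport list, 4 of 15 tested genes were higher and 11 lower (0 called), with a median log2 fold change of -0.26 that was -0.04 without Piezo Gel+US replicate 2. Leaving out Slc7a11 and Slc3a2, 3 were higher and 10 lower, with a median of -0.26. Slc38a2, a glutamine and alanine transporter induced when amino acids are short, measured 363 to 456 CPM in Gel+US and 218 to 289 CPM in Piezo Gel+US. Its groups did not overlap, and its log2 fold change was -0.74 (95% interval -1.22 to -0.25). The astrocytic glutamate transporters Slc1a3 and Slc1a2 had -0.63 and -0.29, and without Piezo Gel+US replicate 2, the library of lowest astrocyte markers, -0.32 and 0.22 (Slc1a2 was 0.02 without Gel+US replicate 3). In the glutathione synthesis and recycling list, 6 of 18 were higher and 12 lower (0 called, median -0.11, or -0.22 without Piezo Gel+US replicate 1). Without Gclc and Gclm, which were chosen from this contrast, 6 were higher and 10 lower, with a median of -0.06. Gsr, which regenerates reduced glutathione, lay at -0.22 on the log2 scale without overlap, and the glutaredoxin Glrx3 at -0.23, or 0.08 without Gel+US replicate 3. Ggt1, which cleaves extracellular glutathione, measured 2.86, 2.39 and 2.71 CPM in Gel+US and 4.22, 7.29 and 4.91 CPM in Piezo Gel+US, a log2 fold change of 1.04 (95% interval 0.26 to 1.83).

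In the cysteine and thiol oxidation list, which holds Ado, 8 of 13 tested genes were higher and 5 lower (0 called, median 0.11), and the median was -0.10 without Piezo Gel+US replicate 3. Its 12 genes other than Ado had 7 higher and 5 lower, with a median of 0.08. Csad, which makes hypotaurine from the product of Cdo1, measured 41.0, 42.4 and 34.0 CPM in Gel+US and 50.7, 46.9 and 49.7 CPM in Piezo Gel+US, a log2 fold change of 0.33 (95% interval -0.05 to 0.71). Sqor, the mitochondrial sulfide oxidase, had a log2 fold change of 0.58, which was 0.12 without Piezo Gel+US replicate 2, and Got1, a cytosolic aspartate aminotransferase, had -0.30, which was 0.14 without Gel+US replicate 3.

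Lipid peroxide defence was divided, with 12 of 21 tested genes higher and 9 lower (0 called, median 0.10, from 0.003 to 0.14 with 1 library left out). Leaving out Gpx4, Aifm2 and Nqo1, which were chosen from this contrast, 9 were higher and 9 lower, with a median of 0.03. Gch1, the first enzyme of the antioxidant tetrahydrobiopterin, measured 13.6, 22.3 and 7.82 CPM in Gel+US and 8.80, 4.58 and 6.93 CPM in Piezo Gel+US. Its groups overlapped, and its log2 fold change of -1.10 was -0.66 without Gel+US replicate 2. Mboat1, a phospholipid acyltransferase, measured 125 CPM in Piezo Gel+US replicate 2 and 11.1 to 27.4 CPM in the other libraries, and its log2 fold change of 1.81 was 0.56 without that library. Prdx6, a peroxiredoxin acting on phospholipid hydroperoxides, had -0.02, or 0.16 without Piezo Gel+US replicate 2. The selenoprotein synthesis list holds genes of the machinery that makes selenoproteins such as Gpx4, and also several selenoproteins themselves, Selenow among them. It had 10 of 15 higher and 5 lower (0 called, median 0.12). Selenow measured 152 ± 4.87 CPM in Gel+US and 195 ± 21.5 CPM in Piezo Gel+US, a difference of 0.36 on the log2 scale. Sepsecs lay at 0.24 and the plasma selenium carrier Selenop at 0.23. Without Gel+US replicate 2 these were 0.14 and 0.09, and the list median was 0.06 without Piezo Gel+US replicate 2.

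Among lipid peroxidation substrates and enzymes, 10 of 15 tested genes were higher and 5 lower (0 called), with a median of 0.19 that was -0.01 without Piezo Gel+US replicate 2. The 14 other than Acsl4 had 10 higher and 4 lower, with a median of 0.22. Sat1, the polyamine acetyltransferase, measured 165, 236 and 155 CPM in Gel+US and 204, 505 and 376 CPM in Piezo Gel+US. The groups overlapped, the log2 fold change was 0.97 (95% interval 0.10 to 1.83), and without Piezo Gel+US replicate 2 its value was 0.64. Acsl1, another acyl-CoA synthetase, had 0.32 with no overlap between groups, and Pebp1, a partner of lipoxygenases, 0.19, which was -0.02 without Gel+US replicate 2.

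Heme and iron genes were split, 10 of 23 higher and 13 lower (0 called, median -0.06, or 0.05 without Gel+US replicate 2). The 22 other than Hmox1 had 10 higher and 12 lower, with a median of -0.06. Fth1, the ferritin heavy chain that stores iron, measured 6243, 7198 and 8023 CPM in Gel+US and 8847, 20315 and 13678 CPM in Piezo Gel+US. The groups did not overlap, Piezo Gel+US replicate 2 was highest, and the log2 fold change was 1.00 (95% interval 0.03 to 1.96), or 0.65 without that library. Ferritin has many near-identical processed copies in mammalian genomes, so its count is uncertain. Slc39a14, a zinc and iron importer, had -0.44 and the iron chaperone Pcbp1 0.26, or 0.07 without Piezo Gel+US replicate 2.

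The transcription programmes that include Slc7a11 were split in direction. NRF2 regulators and targets had 10 of 20 tested genes higher and 10 lower (0 called, median 0.001). That list includes 5 of the 10 genes, and its 15 others had 9 higher and 6 lower, with a median of 0.16. Nfe2l2 itself lay at 0.08 and its inhibitor Keap1 at 0.16 on the log2 scale. The small Maf partner Mafk had 0.53 (0.33 without Gel+US replicate 3), the pentose phosphate enzyme Taldo1 0.46 (0.20 without Piezo Gel+US replicate 2) and the autophagy receptor Sqstm1 0.21 (0.13 without Piezo Gel+US replicate 3). The ATF4 amino acid response had 8 of 18 higher and 10 lower (0 called, median -0.04, from -0.06 to 0.11 with 1 library left out). Its 16 genes other than Slc7a11 and Slc3a2 had 7 higher and 9 lower, with a median of -0.04. Asns, asparagine synthetase, had -0.76, or -0.28 without Gel+US replicate 3, Aldh18a1, an enzyme of proline synthesis, -0.29, and Atf4 itself 0.23, or -0.08 without Piezo Gel+US replicate 2. Peroxide and superoxide enzymes had 6 of 13 higher and 7 lower (0 called, median -0.02, or -0.15 without Piezo Gel+US replicate 2), with -0.60 for Prdx2, -0.36 for Prdx3 (-0.18 without Gel+US replicate 3) and -0.69 for Gpx1, whose value was -0.05 without Gel+US replicate 2.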

How the data were processed

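RNA from the 6 lesion cores was selected for polyadenylated transcripts and made into strand-specific libraries, per the labels' protocols. The authors deposited unnormalised whole-number counts for each gene together with its length. The submitters' processing notes list DESeq2 1.20.0, featureCounts 1.5.0-p3, fastp 0.19.7 and HISAT2 2.0.5 but give no roles, and the genome build and the use of strand in counting were not given in the sources used here. Libraries were grouped by title, and columns matched by library name. The groups were compared in edgeR 4.0.16 under R 4.3.3 (TMM factors, filterByExpr with minimum count 10 and minimum total 15, robust quasi-likelihood F test on group, Benjamini-Hochberg over 17066 genes, called below 0.05). Each p-value weighs a group difference against the spread between libraries within the groups, estimated with information shared over all genes. The procedure was also run on data simulated with a single spread for all genes and no composition differences between libraries. Those data differ from the present ones in both respects, so nothing is read from that run here. CPM used the TMM-scaled total of the genes tested, and CPM per kilobase divided this by the deposited gene length.

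Alternatives were other scaling factors, no filter, DESeq2 1.42.0, limma-voom with quality weights (limma 3.58.1), a replicate block and each library left out. Replicate numbers recur in both groups, and deviations from the group means correlated at 0.253, 0.296 and 0.251 for numbers 1 to 3, above the 0.1 set for pairing. Of the 6 pairs of unlike numbers, Gel+US 1 with Piezo Gel+US 3 was also above it, at 0.198. The labels state no pairing. Deviations from a group mean are tied to each other, so these correlations are not independent, and whether they reflect a pairing was not tested. The 10 genes, the gene lists and the naming rule were chosen with earlier results of these data known. The rule names the 10 genes, and from each pathway list the 2 other genes of lowest p and the 1 of highest level per kilobase, each gene being named once. It adds the 5 genes of nearest pattern for Slc7a11 and for Ado. Slc7a light chains, Cdo1, Hmox2, Nfe2l2, Keap1, Slc4a1 and Ahsp were named after their values were seen. List entries without a match by name were not used.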

Additional observations from a re-analysis of the deposited data

How the results depend on the processing

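Across 12 alternative settings, 0 genes were called in each (edgeR with 2 other scalings, without the filter, with the replicate block and with each library left out, DESeq2, and limma-voom), and 5 or 6 of the 10 genes were higher in Piezo Gel+US. The replicate block called 0 genes, with 986 at an unadjusted p below 0.05 against 359 without it, and gave -1.01 for Slc7a11, -0.64 for Gclm and 0.85 for Ado, so it changed no call. The log2 fold changes of 9 of the 10 genes had the same sign in all 12 settings, and Acsl4 had the other sign in 3. With 1 library left out, Slc7a11 ranged from -1.25 to -0.83, Gclm from -0.85 to -0.50 and Ado from 0.66 to 1.05. The number of genes at an unadjusted p below 0.05 ranged from 141 without Gel+US replicate 1 to 775 without Gel+US replicate 2. Of 120 list medians under these settings 17 had the other sign. Scaling by the raw library total moved none of the levels of the 10 genes by more than 1 SD. How far depth or the number of libraries limits the calls was not tested.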
